A study of Mus musculus with 6 samples.

Results

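Molecular chaperones of the cytosol and mitochondria were followed in 6 RNA-sequencing libraries of mouse neural stem cells, 3 with a control short hairpin RNA (shControl) and 3 with a hairpin against Mina53 (shMina53). The set holds 42 genes, chosen by name from the 25996 genes of the authors' table, each with 1 entry. They encode 2 heat shock factors, 3 HSP90 proteins, 3 HSP90 co-chaperones, 5 HSP70 proteins, 3 HSP110 and 2 BAG exchange factors, 7 J-domain proteins, 3 small heat shock proteins, both subunits of the mitochondrial chaperonin, 8 subunits of the cytosolic chaperonin TRiC and 4 of prefoldin. All libraries came from cells kept proliferating. The labels give the genotype as WT for shControl and as Mina53 knockdown for shMina53, and total RNA was taken with Trizol. Strain, age, brain region and the number of hairpins or clones are not given in the sources used here. Whether the 3 libraries of a group were separate cultures is not given in the sources used here, so the spread between them may be technical. The limma p-values and standard errors rest on that spread only in part. The fit draws each gene's variance toward that of genes of similar level.

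Chaperones bind unfolded or partly folded proteins and, most often with ATP, let them fold, be carried to another machine or be degraded. HSP70 takes up exposed hydrophobic stretches with the help of J-domain proteins and is emptied by exchange factors, HSP90 acts later on kinases and receptors, and the ring-shaped chaperonins enclose whole proteins. Prefoldin hands new actin and tubulin to TRiC. In heat or other protein stress, heat shock factor 1 binds alternating GAA and TTC units in promoters, heat shock elements, and raises the stress-inducible members of each family, while the constitutive members serve protein synthesis in any growing cell.

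Since the best-known control of these genes lies in their promoters, 4 promoter windows, all with the motif described below, are shown first. The windows of most called members are not printed. RefSeq promoter windows on GRCm38.p6, 250 bases before to 50 after a gene's start, were at hand for 34 of the 42 members. None was at hand for Hsf1, Hsp90aa1, Hsp90ab1, Hspa8, Hspa9, Cryab, Cct4 and Pfdn1. The motif searched was a pair of inverted units, GAANNTTC or TTCNNGAA (N for any base), each of which reads the same on both strands and can overlap the other. It was found in 15 of the 34 (44.1%) and in 17.0% of 27025 genes with such a window. With a run of 3 units the numbers were 4 of 34 (11.8%) and 0.662% of all genes; the 4 were Hspd1, Hspe1, Hsph1 and Dnajb6. A match here is a string of letters and not a shown binding site. In the following 4 windows the capitals mark the matches: Hspa1a (chr17:34972107-34972406, minus strand) and Hspa1b (chr17:34959189-34959488, minus strand) are the heat-inducible HSP70 pair, Hspe1 (chr1:55087898-55088197, plus strand) shares its upstream region with Hspd1, and Hspb8 (chr5:116422815-116423114, minus strand) is a member that was higher in shMina53.
Hspa1a: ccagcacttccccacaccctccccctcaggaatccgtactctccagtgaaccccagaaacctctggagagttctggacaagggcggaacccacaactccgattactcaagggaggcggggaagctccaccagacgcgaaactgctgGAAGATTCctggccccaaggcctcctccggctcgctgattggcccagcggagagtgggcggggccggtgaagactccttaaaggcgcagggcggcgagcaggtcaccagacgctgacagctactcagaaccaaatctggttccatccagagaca
Hspa1b: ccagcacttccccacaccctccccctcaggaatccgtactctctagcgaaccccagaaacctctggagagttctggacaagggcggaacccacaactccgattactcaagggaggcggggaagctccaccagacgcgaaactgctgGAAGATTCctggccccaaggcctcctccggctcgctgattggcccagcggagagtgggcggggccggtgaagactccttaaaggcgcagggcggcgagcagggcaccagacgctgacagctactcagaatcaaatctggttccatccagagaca
Hspe1: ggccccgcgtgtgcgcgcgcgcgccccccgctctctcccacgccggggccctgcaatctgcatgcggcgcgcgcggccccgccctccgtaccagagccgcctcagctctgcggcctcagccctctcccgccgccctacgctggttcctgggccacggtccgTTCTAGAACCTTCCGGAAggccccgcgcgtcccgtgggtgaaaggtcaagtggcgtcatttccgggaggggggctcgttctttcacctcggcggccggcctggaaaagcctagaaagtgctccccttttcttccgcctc
Hspb8: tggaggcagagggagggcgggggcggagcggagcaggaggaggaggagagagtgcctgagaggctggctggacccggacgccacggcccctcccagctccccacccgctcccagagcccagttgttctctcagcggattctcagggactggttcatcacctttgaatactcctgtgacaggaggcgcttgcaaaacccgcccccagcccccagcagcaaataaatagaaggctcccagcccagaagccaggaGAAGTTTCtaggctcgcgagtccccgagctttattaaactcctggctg
The windows of Hspa1a and Hspa1b differed at 4 of 300 bases (C44T, T47C, T249G and C276T, Hspa1a first, counted from 1 at the 5′ end), and both carry the same pair of units starting 104 bases upstream. Hspd1 has 2 windows. The one with a match runs opposite to the Hspe1 window and shares 285 bases with it, and the marked stretch, in the shared part, is a run of 4 units. The other Hspd1 window (chr1:55088194-55088493, minus strand) holds no match. The pair of units of Hspb8 begins 2 bases downstream of its annotated start. Among the 5 members called lower in shMina53, as described further on, the pair of units was in the windows of Hspa1a and Cdc37 and not in those of Cct7, Pfdn2 and Pfdn5, so in 2 of 5, against 12 of 28 members not called.

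The libraries held 13753857 to 16811085 reads, and the values of the authors' table, reads scaled by a single factor in each library, are called scaled counts here and given in the order of libraries 1, 2 and 3. Riox2, the gene of Mina53, had scaled counts of 290.4, 333 and 307 in the shControl libraries and of 121, 125 and 121 in the shMina53 libraries, 39.4% of the control mean (log2 fold change -1.34, SE 0.146, adjusted p = 9.1e-05). All 12 stem cell markers listed had reads in every library, with a summed level of 141187 to 159762 scaled counts in shControl and 139671 to 144490.0 in shMina53, most of it from Vim, Slc1a3 and Fabp7. Of these markers, 3 were called lower (Sox2, Hes5 and Vim) and 2 higher (Nr2e1 and Slc1a3), and Sox2, a factor that maintains stem cells, was at 7743 ± 222 against 5334 ± 587. Of the microglial and macrophage markers with an entry, P2ry12 and Csf1r stayed under 5 and Cd68, a lysosomal protein, was at 181 to 243 in every library. Among endothelial markers Pecam1 and Cldn5 stayed under 5, while Flt1 was at 79.8 to 119.9 and Kdr at 34.8 to 65.4. The control library shControl 3 stood apart: transcripts of 1000 bases were on average 0.41 higher there on the log2 scale than their 6-library mean, and 0.21 lower in shMina53 3. The median fold change over all 21500 genes tested was 0.02.

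Of the 42 chaperone genes, all of which passed the filter on low values (a mean of at least 1), 5 were lower and 2 higher in shMina53 and 35 were not called at an adjusted p under 0.05 (limma-trend on log2 of the scaled count plus 1, two-sided, Benjamini-Hochberg over all genes tested). The 5 lower genes, 11.9% of the members, were Pfdn2, Hspa1a, Cct7, Cdc37 and Pfdn5, against 4.47% called lower among all genes and 8.26% called in either direction. The 2 higher ones, 4.76%, were the small heat shock proteins Cryab and Hspb8, against 3.79%. All members but Hspb1 had a mean above 100, and among the 10929 genes at or above that level 7.79% were called lower and 13.5% in either direction, against 16.7% of the members. At an unadjusted p under 0.05 limma placed 13 members lower, against 12.2% of all genes. The members' median log2 fold change was -0.18, with 30 values below 0 and 12 above. In 17 members every shMina53 library lay below every shControl library (14.1% of all genes) and in 2 every one lay above (14.9%), together 29.1% of all genes. The library shControl 3 was the highest of the 6 in 27 members. Calls among the members depended on single libraries. Without shControl 1 or shControl 3, 8 members were called lower, against 6.59% and 5.98% of all genes. Without shControl 2 or shMina53 2 it was 1 member, against 1.57% and 1.73%, and without shMina53 3 it was 0, against 1.28%. edgeR, run on the recovered reads, called the same 7 members, against 6.48% of genes lower and 5.46% higher. DESeq2, also on the recovered reads, called 2127 genes in all, the same 2 members higher and 9 lower. Its share of all genes called lower was not worked out, so the 9 have no such share beside them. The 9 were the 5 named above with Hspa1b, Hspe1, Ahsa1 and Cct5. Without the trend and robust options limma called 32 genes in all and none of the members.

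**Figure D1:**
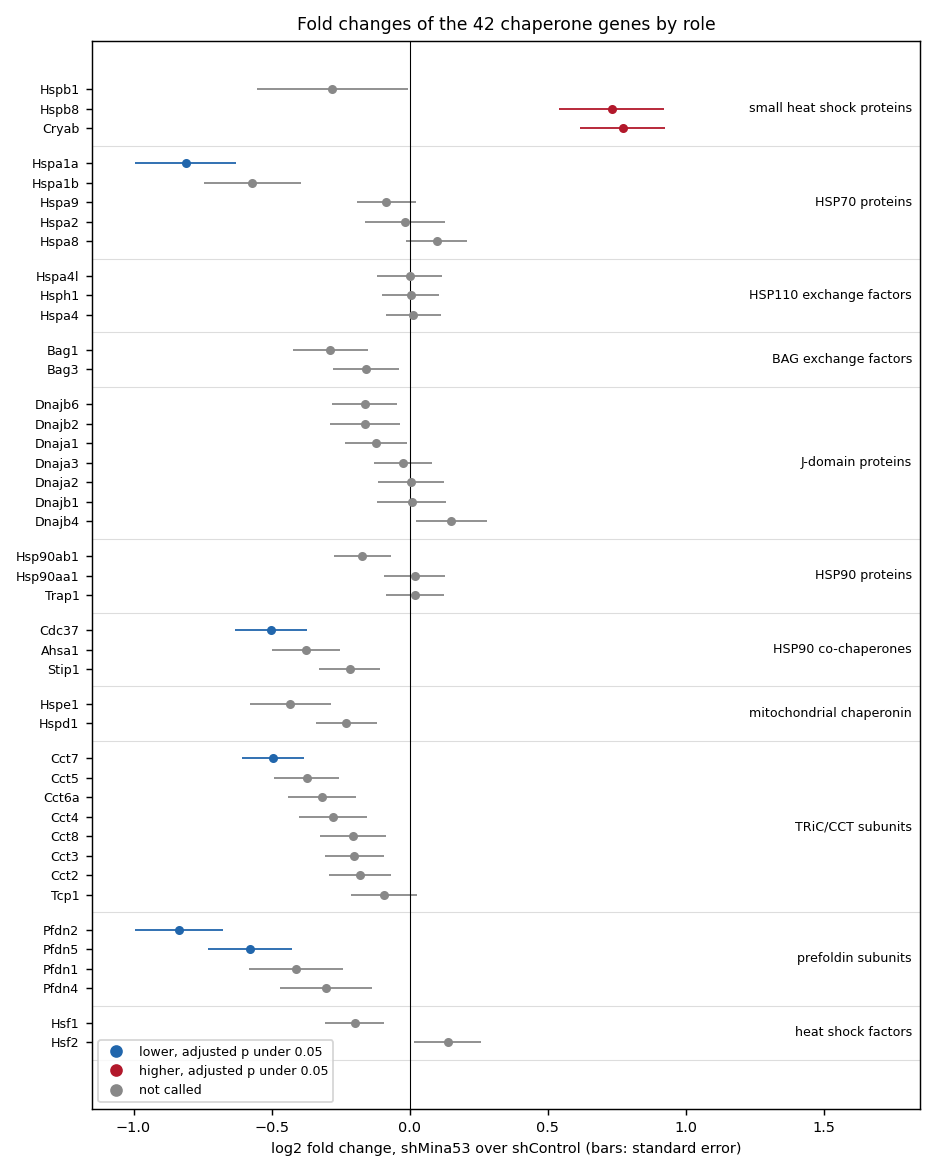
Log2 fold change of shMina53 over shControl (horizontal axis) for the 42 genes, grouped by role. Bars are the standard error of the limma fit with shrunken variances, 3 libraries per group. Blue points mark genes called lower, red points genes called higher and grey points genes not called: all 8 TRiC and all 4 prefoldin genes lie left of 0, from -0.09 to -0.83, while Cryab and Hspb8 lie at 0.77 and 0.73.

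The small heat shock proteins were the only class of members with higher genes. Hspb6, a small heat shock protein gene outside the members, went the other way and was not called. It had 192 ± 3.29 against 151 ± 19.9 scaled counts (log2 fold change -0.35, adjusted p = 0.192). Every shMina53 library lay below every shControl library for Hspb6, as in 14.1% of all genes. Cryab (ENSMUSG00000032060, chromosome 9, 50751325 to 50756636, plus strand), which encodes alpha B-crystallin, a holdase that keeps unfolded proteins and intermediate filaments from aggregating, had scaled counts of 437, 485 and 681 in the shControl libraries and of 1009, 911 and 784 in the shMina53 libraries. Every shMina53 library was above every shControl library. The rise was from 535 ± 129 to 901 ± 113 (mean ± SD, n = 3; log2 fold change 0.77, SE 0.153, adjusted p = 0.00577), 1.69-fold, and it was called in all 6 fits that left out 1 library. Hspb8 (ENSMUSG00000041548, chromosome 5, 116408491 to 116422864, minus strand), the small heat shock protein that pairs with BAG3 in chaperone-assisted autophagy, had scaled counts of 102, 146 and 175 in the shControl libraries and of 202, 226 and 262 in the shMina53 libraries. Its groups did not overlap either, but shControl 1 lay well below the other 2 controls. It rose from 141 ± 36.7 to 230.1 ± 30.2 (log2 fold change 0.73, SE 0.191, adjusted p = 0.0264) and lost its call when shControl 1, shControl 2, shMina53 2 or shMina53 3 was left out (highest adjusted p 0.161). Its partner Bag3, which joins HSP70 to HSPB8, did not pass the test (711 ± 68.2 against 637 ± 46.1 scaled counts, log2 fold change -0.16, adjusted p = 0.468). The ratio of Hspb8 to Bag3 was 0.161, 0.194 and 0.233 in the shControl libraries and 0.305, 0.34 and 0.449 in the shMina53 libraries. A higher ratio in shMina53 follows from the rise of Hspb8 and the negative fold change of Bag3 just given. Hspb1, the family member most often used as a stress marker, had few reads, with scaled counts of 35.8, 35.3 and 42.3 in the shControl libraries and of 35.8, 25.9 and 31.6 in the shMina53 libraries, and its groups overlapped.

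Cryab is also a gene of mature oligodendrocytes and of astrocytes, whose markers moved in these libraries. Of 13 oligodendrocyte lineage markers tested, 6 were called lower and 1 higher, and the list's summed level was 49649 to 51983 scaled counts in shControl and 46379 to 55804.5 in shMina53, with Mag under 5 in every library. Of 10 astrocyte markers, 3 were called higher and 7 not, with summed levels of 43483 to 46909 and 50175 to 54635. Of 11 neuronal markers, 6 were called lower and 1 higher, with summed levels of 20290.0 to 22021 and 19948 to 20782. The 1 higher was Map2 (10738 ± 1191 against 13856 ± 446), the largest part of that sum. The 6 lower included Mapt (2960 ± 289 against 1877 ± 108) and Gap43 (3642 ± 606 against 2341 ± 89.5), so the sum does not show their fall. Adjusted p-values of 5 fibroblast and mural markers ran from 0.0581 to 0.961, and their summed levels were 234 to 335 and 354 to 541 with Col1a2, Dcn and Lum under 5. In bulk RNA, more cells of a type and more RNA per cell cannot be told apart, and the part of these cell types in the rise of Cryab was not tested. Hspb2, a small heat shock protein gene that shares 252 exonic bases with Cryab on the other strand, had at most 1 read in any library.

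Of the 2 heat-inducible HSP70 genes, 1 fell and the other did not pass the test. Hspa1a (ENSMUSG00000091971, chromosome 17, 34969190 to 34972156, minus strand) and Hspa1b (ENSMUSG00000090877, chromosome 17, 34956436 to 34959238, minus strand) encode nearly the same protein, are almost silent in unstressed tissue and are the classical targets of heat shock factor 1. Hspa1a had scaled counts of 223, 289.8 and 184 in the shControl libraries and of 148, 128 and 115 in the shMina53 libraries and fell from 232 ± 53.5 to 130.3 ± 16.5, to 56.1% of the control (log2 fold change -0.81, SE 0.182, adjusted p = 0.0116). Hspa1b had scaled counts of 348, 352 and 226 in the shControl libraries and of 221, 172 and 221 in the shMina53 libraries, 309 ± 71.3 against 205 ± 28.3, and was not called (log2 fold change -0.57, SE 0.177, adjusted p = 0.0568). In both genes shControl 3 was the lowest control, while it was the highest for most other members, and the shMina53 libraries still lay below it, for Hspa1b by a small margin. Without shControl 3 both were called (-0.97 and -0.78, adjusted p = 5.84e-05 and 0.000154). Leaving out shControl 2, shMina53 2 or shMina53 3 instead ended the call of Hspa1a (highest adjusted p 0.092). Of the 50-base words of the Hspa1b transcript 62.3% also occur in that of Hspa1a, so reads can be split between them, and how such reads were counted is not given in the sources used here. Summed over the pair, the levels were 570.4, 641 and 411 in the shControl libraries and 369, 299.96 and 337 in the shMina53 libraries.

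**Figure D2:**
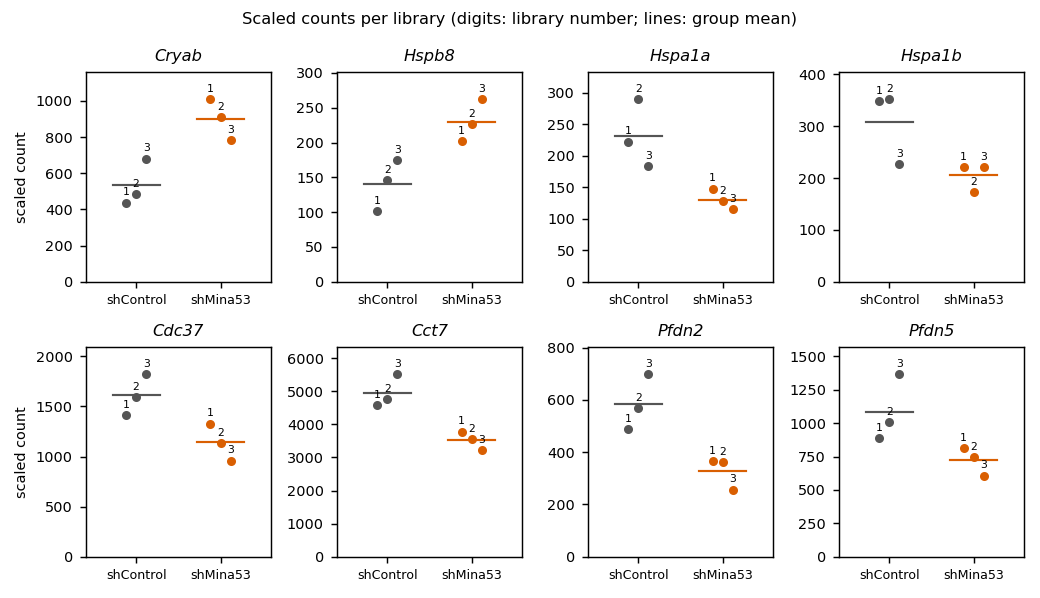
Scaled counts (vertical axes, from 0) of the 7 called members and Hspa1b in each library; digits give the library number and lines the group means. In all 8 panels the groups do not overlap, and shControl 3 is the highest control for Cryab, Hspb8, Cdc37, Cct7, Pfdn2 and Pfdn5 but the lowest for Hspa1a and Hspa1b.

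The constitutive HSP70 proteins were far more abundant and did not pass the test. Hspa8, the housekeeping HSP70 of the cytosol, had scaled counts of 29560.2, 28486 and 35086 in the shControl libraries and of 32292, 32915 and 34124 in the shMina53 libraries (log2 fold change 0.10, adjusted p = 0.637). In scaled counts per kilobase of transcript, its mean level in shControl was 12968, against 78.2 for Hspa1a and 110.1 for Hspa1b. Hspa9, the mitochondrial HSP70 that pulls imported proteins through the inner membrane, had 11767 ± 1197 against 11066 ± 251 scaled counts (log2 fold change -0.08), and Hspa2, an HSP70 best known from the testis, 274 ± 13.7 against 272 ± 37.9 (-0.02). For Hspa8, 73.2% of the 50-base words occur in transcripts of 11 other annotated genes, among them processed copies, so its level is uncertain.

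Of the 12 HSP110, J-domain and BAG genes among the members, none passed the test at an adjusted p under 0.05 in limma or in edgeR, and Bag1 alone did at an unadjusted p under 0.05 in limma. The HSP110 genes Hspa4, Hspa4l and Hsph1, whose products release ADP from HSP70, had log2 fold changes of 0.01, 0.00 and 0.00, and their groups overlapped. Hsph1, a strongly heat-inducible gene whose window holds a run of 3 units, had scaled counts of 3132, 2991 and 3108 in the shControl libraries and of 3002, 3007 and 3249.7 in the shMina53 libraries. Among the 7 J-domain proteins, which bring clients to HSP70 and start its ATP hydrolysis, adjusted p-values ran from 0.442 to 0.987. Their log2 fold changes ran from -0.16 (Dnajb6) to 0.15 (Dnajb4). Dnajb1, the J-domain partner of the inducible HSP70, had scaled counts of 639, 696 and 737 in the shControl libraries and of 726, 767 and 598 in the shMina53 libraries, with shMina53 3 the lowest and shMina53 2 the highest of all. The farnesylated Dnaja1 and Dnaja2 (-0.12 and 0.00), the mitochondrial Dnaja3 (-0.02) and the neuronal Dnajb2 (-0.16) overlapped between the groups as well. Bag1, an exchange factor that links HSP70 to the proteasome, had scaled counts of 1061, 1051 and 1538 in the shControl libraries and of 1003, 952 and 989 in the shMina53 libraries. Its groups did not overlap, but only shControl 3 stood far above the rest (log2 fold change -0.29, adjusted p = 0.211), and without shControl 3 the value was -0.11.

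HSP90 itself did not pass the test, while its kinase adaptor fell. The constitutive cytosolic Hsp90ab1 was the most abundant member per kilobase (13162 in shControl) and had scaled counts of 31989, 31869.7 and 35650.1 in the shControl libraries and of 29915, 29771 and 28588 in the shMina53 libraries. Its groups did not overlap (log2 fold change -0.17, adjusted p = 0.337). The inducible Hsp90aa1 had 12736 ± 1473 against 12858 ± 902 scaled counts and the mitochondrial Trap1 2191 ± 116 against 2220.0 ± 115, with log2 fold changes of 0.02 and 0.02. Cdc37 (ENSMUSG00000019471, chromosome 9, 21133222 to 21149982, minus strand), which delivers protein kinases to HSP90, had scaled counts of 1412, 1595 and 1821 in the shControl libraries and of 1328, 1134 and 959 in the shMina53 libraries. The 2 groups did not overlap, and within shMina53 library 3 was the lowest. It fell from 1609.5 ± 205 to 1141 ± 185 (log2 fold change -0.50, SE 0.131, adjusted p = 0.0267). The call ended when shControl 2, shMina53 2 or shMina53 3 was left out (highest adjusted p 0.171). With the trend of values with transcript length removed the call ended too, although the log2 fold change was larger in size (-0.69, adjusted p = 0.147). Ahsa1, the activator of the HSP90 ATPase, had scaled counts of 1316, 1488 and 1651 in the shControl libraries and of 1252, 1188 and 995 in the shMina53 libraries and was not called (log2 fold change -0.38, SE 0.122, adjusted p = 0.0673). It was called without shControl 1 or shControl 3. Stip1, the adaptor that passes clients from HSP70 to HSP90, had 3201 ± 202 against 2761 ± 287 (-0.22). All 3 co-chaperones had no overlap between groups, with every shMina53 library below, as in 14.1% of all genes. In each of them shControl 3 was the highest and shMina53 3 the lowest library.

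Subunits of TRiC, the double ring of 8 different proteins that folds actin and tubulin, all had log2 fold changes below 0, from -0.49 to -0.09 with a median of -0.24, but 1 of 8 was called. Cct7 (ENSMUSG00000030007, chromosome 6, 85451514 to 85468475, plus strand), the eta subunit, had scaled counts of 4584, 4773 and 5512 in the shControl libraries and of 3780.0, 3545 and 3218 in the shMina53 libraries and fell from 4956 ± 491 to 3514 ± 282 (log2 fold change -0.49, SE 0.111, adjusted p = 0.012). As for Cdc37, the call ended when shControl 2, shMina53 2 or shMina53 3 was left out (highest adjusted p 0.0915). Tcp1, the alpha subunit, had scaled counts of 4961, 4913 and 6266 in the shControl libraries and of 4753, 4776 and 5556 in the shMina53 libraries, with shMina53 3 above 2 of the controls. Cct7 and Tcp1 (log2 fold change -0.09) had the lowest and the highest fold change of the 8 subunits, so a lower ratio in shMina53 follows from the choice of this pair. The ratio of Cct7 to Tcp1 was 0.924, 0.971 and 0.88 in the shControl libraries and 0.795, 0.742 and 0.579 in the shMina53 libraries. Cct7 shares 214 exonic bases with Pradc1 on the other strand, which had a mean of 179 scaled counts over the 6 libraries and was lower too (log2 fold change -0.67). Cct5, the epsilon subunit, had scaled counts of 5131, 5441 and 6875 in the shControl libraries and of 4464, 4517 and 4381 in the shMina53 libraries and was not called (log2 fold change -0.37, SE 0.117, adjusted p = 0.0589), though it was without shControl 1 or shControl 3. Cct6a and Cct4 had log2 fold changes of -0.32 and -0.28 and no overlap between groups, and Cct3 -0.20, also with none. Cct8 (-0.20) and Cct2 (-0.18) overlapped. In scaled counts per kilobase the 8 genes lay within a narrow band in shControl, from 1785 (Cct4) to 3139 (Cct5). Every subunit was highest in shControl 3, where their median was 0.37 above the 6-library mean on the log2 scale. It was 0.01 in both remaining controls, between -0.16 and -0.07 in the shMina53 libraries, and the median fold change without shControl 3 was -0.13.

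Prefoldin, the jellyfish-shaped complex that delivers new chains to TRiC, has 4 subunits among the members, of which 2 were called lower, and 2 further subunits, Pfdn6 and Vbp1, among the other chaperone genes, of which Pfdn6 was called lower. Pfdn2 (ENSMUSG00000006412, chromosome 1, 171345670 to 171359254, plus strand) had scaled counts of 487, 567 and 698 in the shControl libraries and of 364, 362 and 256 in the shMina53 libraries and fell from 584 ± 106 to 328 ± 61.8, to 56.1% of the control (log2 fold change -0.83, SE 0.16, adjusted p = 0.00447). The groups stood clearly apart, and the call was lost in 1 of 6 fits, without shMina53 3 (adjusted p = 0.0525). Pfdn5 (ENSMUSG00000001289, chromosome 15, 102326116 to 102331873, plus strand), also known as a binder of MYC, had scaled counts of 888, 1006 and 1366 in the shControl libraries and of 812, 745 and 607 in the shMina53 libraries and fell from 1087 ± 249 to 721 ± 105 (log2 fold change -0.58, SE 0.152, adjusted p = 0.0289). As for Cct7, removing shControl 2, shMina53 2 or shMina53 3 ended the call (highest adjusted p 0.179). Pfdn5 shares 165 exonic bases with Myg1 on the same strand. Myg1 had a mean of 429 scaled counts over the 6 libraries and was not called (log2 fold change 0.12). Pfdn1 had scaled counts of 801, 898 and 1122 in the shControl libraries and of 898, 699 and 546 in the shMina53 libraries, with 1 knockdown library level with the middle control. Pfdn4 had scaled counts of 405, 439 and 692 in the shControl libraries and of 391, 385 and 436 in the shMina53 libraries, with shControl 3 far above the others. Neither was called (log2 fold changes -0.41 and -0.30) and both overlapped between groups, though Pfdn1 was called without shMina53 1 (-0.59, adjusted p = 0.049). The median deviation of the 4 genes was 0.64 in shControl 3 and -0.55 in shMina53 3, the highest and the lowest of the 6 libraries.

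**Figure D3:**
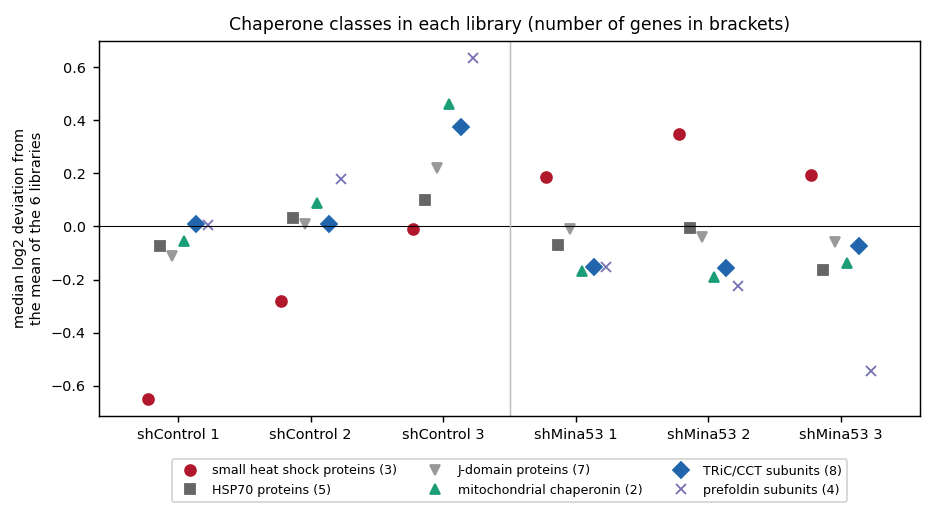
Median log2 deviation of each class's genes from their mean over the 6 libraries (vertical axis) in each library, with the number of genes in brackets. TRiC, prefoldin and the mitochondrial chaperonin peak in shControl 3 at 0.37, 0.64 and 0.46, and the small heat shock proteins are lowest in shControl 1 at -0.65.

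The mitochondrial chaperonin genes were highest in shControl 3 as well. Hspd1 and Hspe1 encode HSP60 and its lid HSP10, and 1 of the 2 Hspd1 windows shares the region printed above. Hspd1 had scaled counts of 9658, 10165 and 12136 in the shControl libraries and of 9433, 9064 and 8660.2 in the shMina53 libraries. Hspe1 had scaled counts of 2201, 2557 and 3589 in the shControl libraries and of 1933, 1943 and 2192 in the shMina53 libraries. In both genes all shMina53 libraries lay below all controls, and neither was called (log2 fold changes -0.23 and -0.43, adjusted p = 0.224 and 0.0842). Without shControl 3 the values were -0.13 and -0.23, and Hspe1 was called without shControl 1. The ratio of Hspe1 to Hspd1 was 0.228, 0.252 and 0.296 in the shControl libraries and 0.205, 0.214 and 0.253 in the shMina53 libraries, highest in shControl 3.

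The length of the transcript moved with these differences. Prefoldin transcripts have 935 to 1735 bases and those of HSP110 genes 3802 to 9479, and the trend of values with length, measured over 11382 protein-coding genes, differed between the libraries as given above. With that trend removed from each library, 3 members were called lower (5.09% of all genes) and 2 higher (5.75%), and the members' median was -0.07. Pfdn2 (-0.68, adjusted p = 0.00181), Hspa1a (-0.78, adjusted p = 0.0059) and Cct7 (-0.42, adjusted p = 0.00202) were called lower, and Cryab (1.03, adjusted p = 6.72e-06) and Hspb8 (0.87, adjusted p = 0.00215) higher. Pfdn5 was not called (-0.31, adjusted p = 0.0502), nor was Cdc37 (-0.69, adjusted p = 0.147), for which the annotation gives an unusually long transcript of 7851 bases. Pfdn4, Bag1 and Hspe1 came to -0.0041, -0.02 and -0.09. The TRiC median became -0.17 and that of prefoldin -0.23. The part of transcript length in the differences was not tested further.

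**Figure D4:**
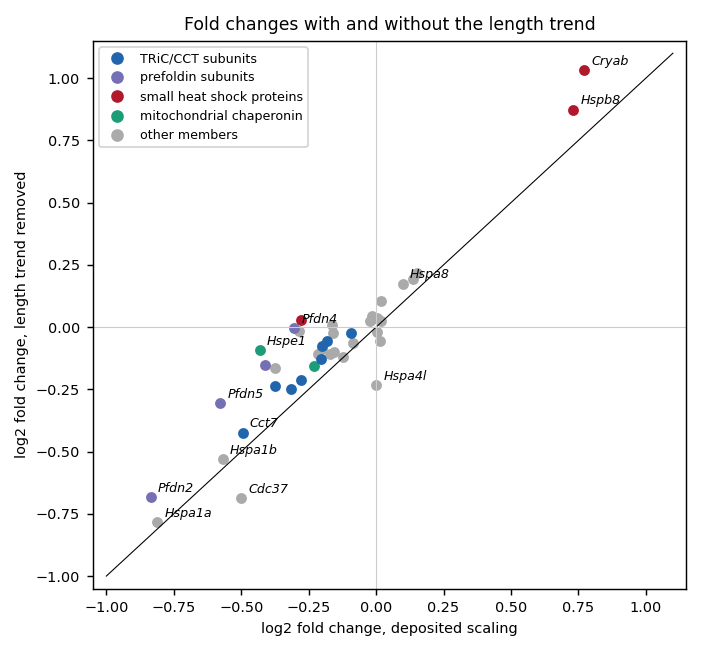
Log2 fold change of the 42 members on the deposited scale (horizontal axis) against the value after the length trend was removed (vertical axis); the line marks equal values. Prefoldin and chaperonin genes lie above the line, closer to 0 than before, as with Pfdn5 at -0.58 and -0.31, while Cryab moves from 0.77 to 1.03.

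The heat shock factors themselves did not pass the test. Hsf1, the master factor of the heat shock response, whose activity is set mainly by changes to the protein, had scaled counts of 936, 913 and 910.3 in the shControl libraries and of 839, 789 and 777 in the shMina53 libraries. All shMina53 libraries lay below all controls (log2 fold change -0.20, adjusted p = 0.276). Hsf2, a factor active in the developing brain, had 856 ± 96.5 against 942 ± 99.2 scaled counts and overlapped (0.14, adjusted p = 0.537).

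Further chaperone genes were taken from a list of cytosolic and mitochondrial families that also holds a few J-domain proteins of the endoplasmic reticulum membrane, such as Dnajb12 and Dnajb14. Of 73 such genes tested, 8 were called lower (11.0%), 1 higher and 64 not, and their median log2 fold change was -0.09. The share called lower was 4.47% of all genes and 7.79% of genes with a mean of at least 100. The remaining prefoldin subunits were Vbp1, which had 1464 ± 306 against 1255 ± 153 scaled counts, overlapped and was not called (-0.21, adjusted p = 0.388), and Pfdn6, with a fall from 318 ± 47.6 to 184 ± 49.3 in scaled counts (-0.81 on the log2 scale, adjusted p = 0.0159). Hscb, the mitochondrial J-domain protein of iron-sulfur cluster assembly, fell from 207 ± 22.6 to 117 ± 5.15 (-0.82, adjusted p = 0.00515) and was called in all 6 fits that left out 1 library. Pdcl3, a phosducin-like partner of TRiC, fell from 851 ± 148 to 565 ± 60.3 (-0.58). Dnajc21, a J-domain protein of ribosome assembly, fell from 306 ± 35.7 to 202 ± 13.5 (-0.59). The 1 higher gene was Dnajb14, a J-domain protein of the endoplasmic reticulum membrane (from 1112 ± 163 to 1548 ± 79.1, 0.49). Pdcl3, Dnajc21 and Dnajb14 lost their calls when shControl 2, shMina53 2 or shMina53 3 was left out (highest adjusted p 0.116), Dnajc21 also when shMina53 1 was, and Pfdn6 when shControl 2 or shMina53 3 was (highest adjusted p 0.0971). With the length trend removed, Pfdn6 and Dnajb14 were not called (-0.48, adjusted p = 0.0539 and 0.25, adjusted p = 0.0593).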

How the data were processed

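The authors deposited 1 table with a signal column for each of 6 libraries, read counts per gene divided by 1 factor per library (100% of values were whole multiples of 1 read, tolerance 0.01), 2 group means of that signal and a p-value column. The test behind the deposited p-value is not given in the sources used here, but the values ranked genes as DESeq2 did on the recovered reads (Spearman 1). The median absolute difference in log10 p between the deposited values and DESeq2 was 1.1e-06. Per the submitters' processing notes, the tools included HISAT2 2.0.4, StringTie 1.3.4d, CASAVA and UMI-tools, with edgeR and DESeq2, on mm10, with no roles given. Strand, deduplication and the treatment of reads that fit several genes are not given in the sources used here. Of the members, 14 overlap exons of a gene on the other strand and 11 share over 10% of their 50-base words with transcripts of other genes: Hspa8, Hspa1a, Hspa1b, Hspb1, Hsp90aa1, Hspd1, Dnajb6, Hspe1, Dnaja1, Pfdn5 and Ahsa1. Overlaps on the same strand include Pfdn5 with Myg1 and Dnaja3 with Vasn (160 bases), which was called higher (log2 fold change 0.66).

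Groups were compared with limma 3.58.1 in R 4.3.3 (limma-trend with robust shrinkage; values log2-transformed after adding 1) for the 21500 genes whose mean reached 1, without covariates, two-sided, with Benjamini-Hochberg adjustment. Such fold changes understate those of low genes. edgeR 4.0.16 and DESeq2 1.42.0 were run on the recovered reads. In simulated data of 21500 genes with the mean levels and depths of these libraries, 92% of genes changed 2-fold and 64% of those changed 1.5-fold were called. The spread between simulated libraries was set in advance, with no length trend and no library that stood apart. These rates therefore need not hold for the real libraries. With 3 libraries a group an exact permutation test cannot go below 0.1, so none was used. Lengths and positions are from GENCODE M21 (mm10), with 1 representative transcript per gene, and promoters from RefSeq. The members, lists and named genes (all members, and up to 5 called genes in each direction of the further chaperones) were chosen with earlier results of these data known. Not every gene that this rule names is reported here.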

Additional observations from a re-analysis of the deposited data

How the results depend on the processing

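The 2 higher and 5 lower calls among the members were the same in number with a pseudocount of 0.5 or 5, a minimum mean of 10, TMM scaling, median centring and edgeR. With no filter on low values 1948 genes were called in all, and 7 members were lower. limma without trend and robust called 32 genes in all, and 0 members lower and 0 higher, DESeq2 2127 genes and 9 members lower, and the fit with the length trend removed 3. With the replicate number as a block, 1178 genes were called, 3 members lower and 2 higher. For the block, DESeq2 and the fit with no filter, the shares of all genes called lower or higher were not worked out. The block ended the calls of Cdc37 (adjusted p = 0.0678), Pfdn5 (0.0703), Tubb3 (0.0627) and Sdf2l1 (0.0512). Same-numbered libraries did not vary together (correlations over genes of -0.145, 0.107 and 0.02). Leaving out 1 library gave 497 to 2794 genes, 0 (without shMina53 3) to 8 (without shControl 1 or 3) members lower and 1 to 2 higher, and a median of -0.24 to -0.09. The search for 3 units in place of 2 in promoters found 4 members in place of 15. No symbol had more than 1 entry, so summing entries was not run.

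The sign changed in members that were not called, most of them near 0; Hspb1 (-0.28) and Dnajb6 (-0.16) were farther from it. With TMM scaling Dnaja2 was -0.0073, Dnajb1 -0.0045, Hspa4l -0.0108 and Hsph1 -0.008. In edgeR Dnaja2 was -0.0008, Hspa2 0.0004 and Hspa4l -0.0015, in DESeq2 Dnaja2 -0.0086 and Hspa4l -0.0087, and with median centring Hspa2 0.0049. With the length trend removed Dnaja3 was 0.0263, Dnajb6 0.0072, Hspa2 0.0455, Hspa4 -0.0545, Hspa4l -0.2341, Hspb1 0.027 and Hsph1 -0.0207. Leaving out 1 library gave ranges of -0.0693 to 0.1397 (Dnaja2), -0.0591 to 0.0355 (Dnaja3), -0.0663 to 0.1136 (Dnajb1), -0.0448 to 0.1098 (Hsp90aa1), -0.1006 to 0.0988 (Hspa2), -0.0108 to 0.0396 (Hspa4), -0.0981 to 0.1044 (Hspa4l), -0.0343 to 0.0229 (Hsph1), -0.1661 to 0.0225 (Tcp1) and -0.0187 to 0.0615 (Trap1). The cause was not tested. Depth limits Hspb1 most, with 25 reads in its lowest library.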

Other observations

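Of 18 chaperones and folding enzymes of the endoplasmic reticulum, 3 were called lower (16.7%) and 15 not, with a median log2 fold change of -0.19. The share called lower was 4.47% of all genes and 7.79% of genes with a mean of at least 100. The 3, named after their values were seen, were Pdia6, a protein disulfide isomerase (from 3722 ± 394 to 2537 ± 102 scaled counts, -0.55), Hsp90b1, the HSP90 of that compartment (from 7669 ± 632 to 5478 ± 56.9, -0.48), and Sdf2l1, a partner of the HSP70 protein BiP (from 258 ± 56.6 to 157 ± 29.3, -0.71). Each lost its call without shMina53 3, Hsp90b1 and Sdf2l1 also without shMina53 2 and Sdf2l1 without shControl 2 (highest adjusted p 0.135). With the length trend removed Sdf2l1 was not called (-0.45, adjusted p = 0.0558).

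Actin and tubulin, the main clients of TRiC and prefoldin, mostly did not pass the test. Of 14 genes 1 was called lower and 1 higher, and the median was -0.17. Tuba4a, an alpha-tubulin of mature cells, rose from 107 ± 11.7 to 201 ± 10.5 scaled counts (0.91, adjusted p = 0.00311), in each of the 6 fits without 1 library. Tubb3, the beta-tubulin of neurons, fell from 267 ± 20.2 to 184 ± 8.75 (-0.53, adjusted p = 0.0301) and was called in 1 of those fits, the one without shControl 3. With the length trend removed it was not called (-0.39, adjusted p = 0.0825). Both were named after their values were seen. Summed over the 14 genes, the level was 146076 to 172620.0 in shControl and 135700 to 143113 in shMina53.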
